A study of Homo sapiens with 6 samples.

Results

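The 10 genes described here encode the core machinery that makes microRNAs and silences mRNAs with them: DROSHA, DGCR8, XPO5, DICER1, TARBP2, PRKRA, AGO2, TNRC6A, TNRC6B and TNRC6C. They were chosen by name, as the rows of the deposited count table with these symbols, and all 10 of the 10 were found among its 40173 genes. All 10 were also among the 15250 genes that passed the filter on low counts and were tested. RNA-Seq had been performed on A549 cells, an established human lung adenocarcinoma line, to search for genes downstream of the long noncoding RNA FAM83H-AS1. In the silenced group, 3 libraries came from A549 cells transfected with an siRNA that targets FAM83H-AS1. In the control group, 3 libraries came from the same line transfected with a negative control, and the methods state that RNA was collected the day after transfection. Both groups were therefore transfected cells of 1 line, and the sources used here do not say whether the replicates of a group were separate wells or days, so the p-values measure only the spread between these libraries, which may be technical.

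MicroRNAs are cut from long primary transcripts in the nucleus by the Microprocessor, in which the RNase III enzyme DROSHA works with its RNA-binding partner DGCR8. The hairpins that it releases are carried to the cytoplasm by Exportin-5, the product of XPO5, and are cut again by DICER1, which acts with the double-stranded RNA-binding proteins TARBP2 and PRKRA. An Argonaute protein such as AGO2, the human Argonaute best known for slicing a fully matched target, keeps one strand as its guide, and the TNRC6 scaffold proteins link it to the enzymes that shorten poly(A) tails and remove caps. A transfected siRNA enters the same Argonaute proteins without needing the Microprocessor, so it shares the effector proteins described here with the cell's own microRNAs.

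Library totals lay between 9738291 and 17742643 counts, and the 10 genes together received from 0.0832% to 0.0900% of a library's counts. The targeted RNA was lower in every silenced library: FAM83H-AS1 stood at 15.9 ± 1.39 CPM in the control and 4.87 ± 0.617 CPM in the silenced cells (SD, n = 3), where CPM, the level used throughout, is the count scaled to a common TMM-normalized library size. Its log2 fold change was -1.70 (SE 0.148, adjusted p = 7.99e-05 by edgeR's quasi-likelihood test). One library stood apart in ribosomal RNA: 3.22% of the reads counted in control replicate 3 fell on the pseudogene RNA5-8SP6, against 0.241% to 0.448% in each of the others. Of 8 markers set for A549 epithelial cells, 7 were tested, and their summed level was 3011 to 3593 CPM in the control and 2694 to 2743 CPM in the silenced libraries, while ALDH1A1 had 0 counts in 5 of 6 libraries and 2 in the other. That sum was mostly KRT8 (log2 fold change -0.20, adjusted p = 0.121) and KRT18, which fell (-0.43, adjusted p = 0.00266). AKR1C1 had 71.7 to 130 CPM in the control and 100 to 110 CPM in the silenced libraries (0.13, adjusted p = 0.622). ALDH3A1 fell (-0.68, adjusted p = 0.00918), whereas AKR1B10 rose (1.31, adjusted p = 0.0135) from no more than 0.925 CPM in any control library. EPCAM, at 2.82 to 4.49 CPM, and KRT19, at 0.488 to 1.21 CPM, were scarce in all libraries. The name A549 comes from the study's methods. With ALDH1A1, AKR1B10, EPCAM and KRT19 this low, the marker list as a whole does not bear that name out. The identity of the line was not tested. Of 8 markers of other cell types, 3 were tested, and their summed level was 151 to 172 CPM in the control and 253 to 293 CPM in the silenced libraries. That sum was mostly CD68, a lysosomal protein gene, which rose (log2 fold change 0.88, adjusted p = 9.93e-05). COL1A1 had 25.7 to 29.2 CPM in the control and 27.6 to 37.3 CPM in the silenced libraries (adjusted p = 0.203). VWF had 0.740 to 2.08 CPM (adjusted p = 0.877). The leukocyte marker PTPRC had at most 1 count, the endothelial marker PECAM1 at most 2, COL1A2 at most 4 and ACTA2 at most 8 in any library. CD3E had 0 counts in all 6 libraries. The part of these markers in the results was not tested, and in bulk RNA fewer cells of a type cannot be told apart from less RNA per cell.

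Silencing of FAM83H-AS1 was accompanied by modest changes at 2 of the 10 genes. DGCR8, the RNA-binding partner of DROSHA, fell by 21.0%, and AGO2 rose 1.25-fold, each with an adjusted p under 0.05. These 2 of 10 stand beside a background of 17.0% of all genes tested that passed the same threshold, 8.75% higher and 8.27% lower. With the added demand of a fold change over 2, 0 of the 10 genes passed in edgeR and 0 in DESeq2, beside 2.14% of all genes in edgeR. At an unadjusted p under 0.05 there were 5 of the 10, beside 32.1% of all genes. The 3 control and the 3 silenced values did not overlap for 4 of the 10 genes, beside 36.6% of all genes. The median log2 fold change of the 10 genes was -0.03, and their median absolute change was 0.210, compared with 0.199 over all genes tested. The counts of 2 and of 4 among 10 genes are near the shares of the whole table.

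**Figure D1:**
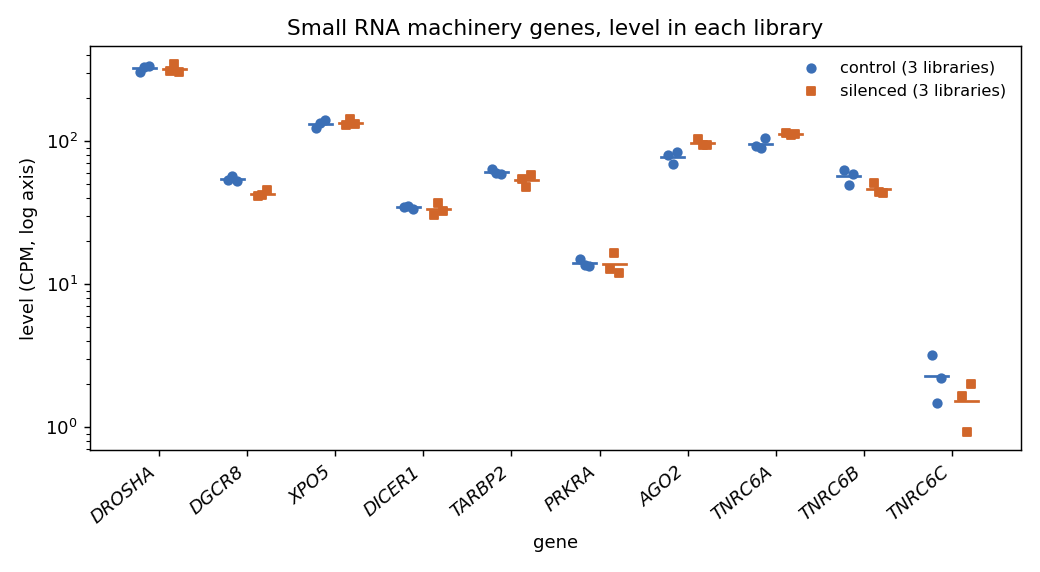
Level of each gene in CPM (log axis) in the 3 control and the 3 silenced libraries, 1 point per library. DROSHA was the most abundant in CPM at 303 to 346, TNRC6C the least at 0.925 to 3.19, and the groups separate at DGCR8, TARBP2, AGO2 and TNRC6A.

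To compare the genes with each other, CPM was divided by the length of the annotated coding-transcript exons of each gene in kilobases. On this scale of CPM per kilobase, DROSHA was the highest in the control cells at 59.7 ± 2.78 (SD, n = 3), followed by TARBP2 at 31.2 ± 1.45 and XPO5 at 24.8 ± 1.68. DGCR8 followed at 12.1 ± 0.605 and TNRC6A at 11.4 ± 0.997, and the ranges of these neighbours overlapped. The levels per kilobase of PRKRA at 6.42 ± 0.368 and AGO2 at 5.31 ± 0.511 did not overlap with each other. DICER1 at 3.21 ± 0.0774 and TNRC6B at 3.05 ± 0.367 could not be separated by their ranges, and TNRC6C was the lowest at 0.229 ± 0.0866. The enzyme of the nuclear step was thus counted far more densely than the enzyme of the cytoplasmic step in these cells, and 1 of the TNRC6 genes was close to the limit of detection. The lengths come from GENCODE 29 and not from the annotation used for counting, so levels of genes with long 3′-UTRs, such as AGO2 and TNRC6B, depend on how much of the UTR the cells use.

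The nuclear step was examined first. DROSHA (chr5:31400497-31532196, minus strand; all positions are GENCODE 29 on GRCh38) was measured at 307, 331 and 335 CPM in control replicates 1 to 3 and at 311, 346 and 303 CPM in silenced replicates 1 to 3. The groups overlapped, and the log2 fold change was -0.02 (SE 0.0744, 95% interval -0.18 to 0.14, adjusted p = 0.886). Its partner DGCR8 (chr22:20080232-20111877, plus strand) had 53.8, 57.6 and 52.3 CPM in the control libraries and 41.3, 42.3 and 45.5 CPM in the silenced libraries. In CPM, every silenced library was therefore below every control library. The raw counts behind these levels, from 523 to 885 in the control and from 423 to 612 in the silenced libraries, overlapped before scaling to library size. The mean went from 54.6 ± 2.73 to 43.0 ± 2.19 CPM (SD, n = 3), which is -0.34 on the log2 scale (SE 0.0794, 95% interval -0.52 to -0.17, adjusted p = 0.0152 by edgeR). With 1 library left out at a time the log2 fold change stayed between -0.39 and -0.30, but the adjusted p was 0.0546 without control replicate 2 and 0.0720 without silenced replicate 1.

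The DGCR8 transcript also carries microRNA hairpins in its own exons, and cleavage of these hairpins by the Microprocessor is a known way in which the complex limits DGCR8 mRNA. They are shown because the DGCR8 counts may include reads across them. MIR1306 lay in a coding exon in 3 of 3 basic coding transcripts, and MIR3618 lay in a UTR in 2 and in an intron in 1. The mature microRNAs, from RefSeq on GRCh38.p14 and all on the plus strand, are given 5′ to 3′ with the seed, bases 2 to 8, in capitals.
hsa-miR-3618 (chr22:20085797-20085818): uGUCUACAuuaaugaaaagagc
hsa-miR-1306-5p (chr22:20086072-20086093): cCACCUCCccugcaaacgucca
hsa-miR-1306-3p (chr22:20086112-20086129): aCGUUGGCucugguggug
No seed is shared among these microRNAs. The table has a row for each hairpin gene, and these rows were nearly empty: MIR1306 had 3 counts in control replicate 3, 1 count in silenced replicate 1 and 0 in the other libraries, and MIR3618 had 1 count each in silenced replicates 2 and 3 and 0 elsewhere. Nothing in the sources used here says that the libraries were made to capture mature microRNAs, so these rows are not read as their levels, and hairpin cleavage was not measured. TRMT2A overlaps it by 10 exon bases on the other strand, and its log2 fold change was -0.23 (SE 0.109, adjusted p = 0.177). The sources used here do not say whether counting used strand, so reads from overlapping bases cannot be assigned to one gene. An antisense transcript, AC006547.2, overlaps 526 exon bases or 11.6% of DGCR8 and was not analysed here.

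The export and dicing steps showed no change past the threshold. XPO5 (chr6:43522330-43576075, minus strand) had 124 to 142 CPM in the control and 131 to 143 CPM in the silenced libraries, with a log2 fold change of 0.02 (SE 0.0773, 95% interval -0.15 to 0.19, adjusted p = 0.895). It shares 348 exon bases, 6.49% of its exons, with POLR1C on the other strand, an RNA polymerase subunit gene with a log2 fold change of -0.38 (SE 0.0937, adjusted p = 0.0187). DICER1 (chr14:95086228-95158010, minus strand) had 34.4, 35.2 and 33.6 CPM in the control and 30.6, 36.8 and 32.6 CPM in the silenced libraries. The control values of DICER1 lay within the range of the silenced values, and the log2 fold change was -0.05 (SE 0.0915, adjusted p = 0.768). Its 95% interval, from -0.25 to 0.15, spans a fold between 0.842 and 1.11, and rests only on the spread between these libraries.

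DICER1 carries a microRNA in an intron, outside the exons that mRNA reads cover, in contrast to the exonic hairpins of DGCR8. MIR3173 lay in an intron in 6 of 6 basic coding transcripts and had 0 counts in all 6 libraries. Its mature sequences are given in the same way, from RefSeq on the minus strand of GRCh38.p14.
hsa-miR-3173-5p (chr14:95137961-95137982): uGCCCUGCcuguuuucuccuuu
hsa-miR-3173-3p (chr14:95137923-95137944): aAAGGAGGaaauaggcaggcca
Both partners of DICER1 were measured at lower precision than DROSHA. TARBP2 (chr12:53500921-53506431, plus strand), which holds the double-stranded RNA for DICER1 and helps to pass it to Argonaute, had 64.3, 60.3 and 58.8 CPM in the control and 54.1, 47.5 and 57.9 CPM in the silenced libraries. The groups of TARBP2 did not overlap, by a margin of less than 1 CPM between control replicate 3 and silenced replicate 3. Its log2 fold change was -0.20 (SE 0.0878, 95% interval -0.39 to -0.0044), and its adjusted p of 0.147 missed the threshold. PRKRA (chr2:178431414-178451512, minus strand), the related DICER1 partner that also activates the kinase PKR, had 13.4 to 14.9 CPM in the control and 12.0 to 16.6 CPM in the silenced libraries. The log2 fold change of PRKRA was -0.02 (SE 0.141, 95% interval -0.33 to 0.29, adjusted p = 0.946), so that its interval was wider than that of TARBP2.

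At the effector step, AGO2 (chr8:140520156-140635619, minus strand) had 79.7, 69.2 and 83.6 CPM in the control and 103, 94.0 and 93.6 CPM in the silenced libraries. The lowest silenced library, replicate 3, was above the highest control library, also replicate 3, so the groups did not overlap. The mean went from 77.5 ± 7.45 to 97.0 ± 5.49 CPM (SD, n = 3), which is 0.32 on the log2 scale (SE 0.0880, 95% interval 0.13 to 0.52, adjusted p = 0.0300 by edgeR). This call was sensitive to single libraries: the adjusted p was 0.0539 without control replicate 1, 0.10 without control replicate 2, 0.125 without silenced replicate 1 and 0.0505 without silenced replicate 3. The log2 fold change nevertheless stayed between 0.25 and 0.38. AGO2 lies on the same chromosome arm as the targeted RNA, 3.09 Mb from FAM83H, the head-to-head neighbour of FAM83H-AS1.

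The other Argonaute genes were compared because their proteins also carry microRNAs and siRNAs. AGO1 had 48.1 to 60.2 CPM in the control and 47.8 to 53.9 CPM in the silenced libraries, with a log2 fold change of -0.10 (SE 0.0952, adjusted p = 0.517). AGO3 had a log2 fold change of 0.05 (SE 0.110, adjusted p = 0.811), and AGO4 of 0.16 (SE 0.134, adjusted p = 0.432). All of these 3 genes had overlapping groups, and whether AGO2 differed from them in its change was not tested. Per kilobase, AGO2 accounted for 45.3% to 46.0% of the summed level of AGO1 to AGO4 in the control libraries and 48.8% to 54.0% in the silenced libraries. The share of AGO1 per kilobase was 33.3% to 34.5% in the control and 26.4% to 30.1% in the silenced libraries, so these shares did not overlap between the groups for either gene. Shares within a family add up to a whole, so that they are not independent of each other, and the share of AGO4 was 12.5% to 13.8% in the control and 12.4% to 14.7% in the silenced libraries.

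**Figure D2:**
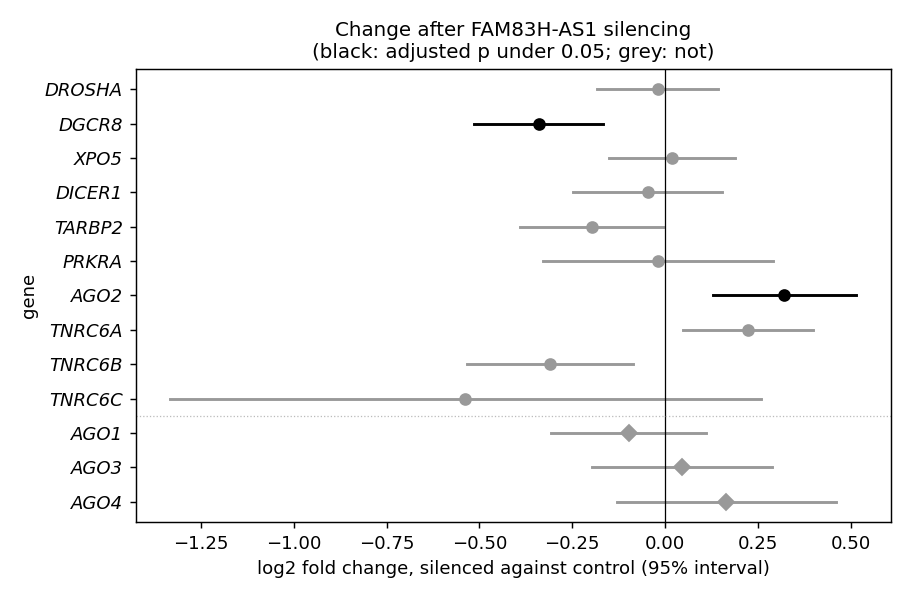
Log2 fold change, silenced against control, of the 10 genes and of AGO1, AGO3 and AGO4, with 95% intervals from edgeR. The intervals of DGCR8 and AGO2, in black, lie on opposite sides of 0, and the interval of TNRC6C, from -1.33 to 0.26, is the widest.

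The TNRC6 scaffold genes, also called GW182 genes, are paralogs with largely shared roles. TNRC6A (chr16:24610209-24827632, plus strand) had 92.7, 90.0 and 106 CPM in the control and 114, 111 and 113 CPM in the silenced libraries. The silenced libraries of TNRC6A lay close together and above every control library. The log2 fold change was 0.22 (SE 0.0801, 95% interval 0.05 to 0.40) with an adjusted p of 0.0789, which missed the threshold, though the adjusted p was 0.0354 without control replicate 3. TNRC6B (chr22:40044817-40335808, plus strand) had 62.9, 49.6 and 59.4 CPM in the control and 50.8, 44.3 and 43.7 CPM in the silenced libraries. The groups of TNRC6B overlapped through control replicate 2, which was below silenced replicate 1. Its log2 fold change was -0.31 (SE 0.102, 95% interval -0.53 to -0.09) with an adjusted p of 0.0590, and of 0.0282 without control replicate 2.

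TNRC6C (chr17:77959240-78108835, plus strand) was scarce, with 31, 17 and 37 counts in the control and 17, 10 and 27 counts in the silenced libraries. At this depth its log2 fold change was -0.54 with an SE of 0.362, and the adjusted p was 0.338. It was -0.26 without control replicate 1, -0.29 without silenced replicate 2, -0.77 without control replicate 2 and -0.81 without silenced replicate 3. A change of this size was not detectable for TNRC6C, although it would exceed those of DGCR8 and AGO2. It shares 1438 exon bases, 14.4% of its exons, with TNRC6C-AS1 on the other strand, which had more counts than TNRC6C in every library, from 51 to 75, and a log2 fold change of 0.15 (SE 0.188, adjusted p = 0.626). Counts of TNRC6C are therefore uncertain if reads were counted without strand. Per kilobase, TNRC6A made up 75.0% to 79.3% of the summed level of the 3 paralogs in the control libraries and 82.4% to 84.2% in the silenced libraries. TNRC6B made up 19.6% to 22.9% per kilobase in the control and 14.6% to 16.6% in the silenced libraries.

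Ratios of partners and paralogs within a library do not depend on the scaling between libraries. Each of the 5 ratios set was compared over the 6 libraries with a two-sided exact permutation test, which cannot go below p = 0.1 with 3 libraries against 3. The ratio of DROSHA to DGCR8 counts was 5.71, 5.74 and 6.41 in the control and 7.54, 8.18 and 6.66 in the silenced libraries, a mean difference of 0.32 on the log2 scale (exact p = 0.1, adjusted over the 5 ratios 0.167). Each silenced library thus had more DROSHA reads per DGCR8 read than any control library. The ratio of TNRC6A to TNRC6B was 1.47, 1.82 and 1.78 in the control and 2.24, 2.50 and 2.58 in the silenced libraries, a difference of 0.53 (exact p = 0.1, adjusted 0.167). DICER1 over AGO2 was 0.432, 0.509 and 0.402 in the control and 0.296, 0.391 and 0.348 in the silenced libraries, a difference of -0.38 (exact p = 0.1, adjusted 0.167). These 3 ratios separated the groups completely and reached the smallest p that the design allows, which is not below 0.05. How often ratios of other gene pairs separate was not measured, and 36.6% of single genes did so. DROSHA and DICER1 changed little (log2 fold changes -0.02 and -0.05), so their ratios mostly repeat the changes of DGCR8 and AGO2. The ratio of TARBP2 to PRKRA differed by -0.17 (exact p = 0.7, adjusted 0.7) and that of TNRC6A to TNRC6C by 0.81 (exact p = 0.2, adjusted 0.25), both with overlapping groups. The latter was 0.50 without control replicate 1 and 0.49 without silenced replicate 2.

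**Figure D3:**
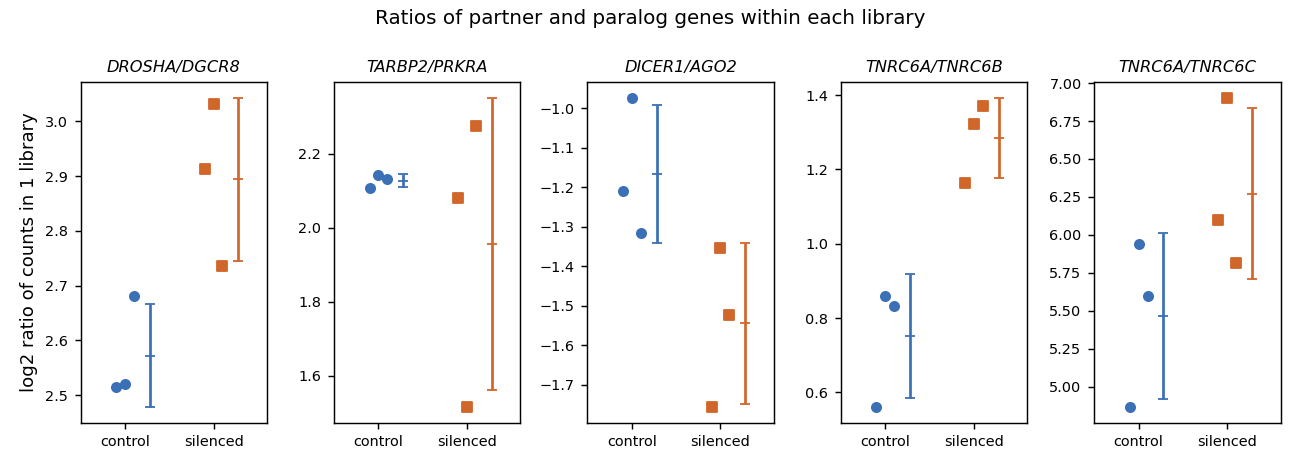
Log2 ratio of the counts of partner or paralog genes in each library, with 1 point per library and the 3 control and 3 silenced libraries side by side. DROSHA over DGCR8 and TNRC6A over TNRC6B are higher, and DICER1 over AGO2 lower, in every silenced library than in any control library, whereas the groups overlap for the other 2 ratios.

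The silenced cells carried an siRNA to FAM83H-AS1, and the control cells a negative control, whose words were not searched. For the siRNA, the 3′-UTRs of the 10 genes were searched on the transcript strand for 7-base words. These words pair with bases 2 to 8 of either strand of the 2 FAM83H-AS1 siRNAs that the study lists. Which of these siRNAs the sequenced cells received is not given in the sources used here. For siRNA1 the words were ATGTTCT for the strand listed as sense and AGATTAC for the strand listed as antisense. For siRNA2 they were GAAAGAA for the strand listed as sense and TCAATAT for the strand listed as antisense. Among 11553 tested genes with an annotated 3′-UTR, ATGTTCT was present in 20.3%, AGATTAC in 9.24%, GAAAGAA in 26.1% and TCAATAT in 12.5%. ATGTTCT occurred in AGO2, TNRC6A and TNRC6B, AGATTAC in AGO2, GAAAGAA in DICER1, PRKRA, AGO2 and TNRC6B, and TCAATAT in DICER1 and TNRC6B. A gene was counted if any of its annotated coding transcripts held the word in the 3′-UTR. The GAAAGAA of DICER1 lay in a transcript with a 3′-UTR of 426 bases, and not in its longest 3′-UTR of 4270 bases. DGCR8, DROSHA, XPO5, TARBP2 and TNRC6C held none of these words in their 3′-UTRs. UTR length differed widely among the genes, from 450 bases in TARBP2 to 11888 in AGO2 and 12567 in TNRC6B, and long UTRs hold more words of any kind. As examples, a site in each of TNRC6A, TNRC6B and DICER1 is shown 5′ to 3′ on the transcript strand with the word in capitals.
TNRC6A (chr16:24824200-24824228): tgcactgaatgATGTTCTctccgtctcat
TNRC6B (chr22:40324663-40324691): ttacttaacgaATGTTCTtaaaccagtgt
DICER1 (chr14:95088266-95088294): agaaaaatgccTCAATATatttgtaacct
The sites shown for TNRC6A and TNRC6B hold the word of the siRNA1 strand listed as sense. That of DICER1 holds the word of the siRNA2 strand listed as antisense, which also occurred in TNRC6B but not in TNRC6A. Such a match is a description of the letters, and binding of an siRNA to these sites was not tested.

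The wider pathway was described with 6 lists of 88 genes in all, of which 83 were tested. Of these 83, 10 were higher and 8 lower at an adjusted p under 0.05, together 21.7% beside the 17.0% of all genes, and their median log2 fold change was -0.0025, beside -0.00067 over all genes. Each list is given with its share past the threshold, to be read beside 17.0% of all genes in either direction, 8.75% higher and 8.27% lower. Among the Argonaute and PIWI genes outside the core set, 1 of 4 tested rose. This was PIWIL2, a PIWI-clade Argonaute best known from the germ line, with 9, 25 and 41 counts in the control and 47, 51 and 63 counts in the silenced libraries. Its log2 fold change was 1.29 (SE 0.293, adjusted p = 0.0136), the only one in the lists past a fold of 2, from a mean of 1.84 ± 0.800 to 4.66 ± 0.0657 CPM (SD, n = 3). With 1 library left out, the adjusted p of PIWIL2 lay between 0.0112 and 0.0479. PIWIL1 and PIWIL3 had 0 counts in all 6 libraries.

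Of 14 cofactors of primary transcript processing, all tested, 3 (21.4%) fell and 0 rose, with a list median of -0.10. Of all genes, 17.0% passed in either direction and 8.27% were lower. DDX5, the DEAD-box helicase p68 that associates with the Microprocessor, went from 268 ± 4.02 to 206 ± 9.46 CPM (SD, n = 3), which is -0.38 on the log2 scale (adjusted p = 0.00429). The related helicase gene DDX17, in the same list, had 247 ± 17.9 CPM in the control and 247 ± 2.36 CPM in the silenced cells. Its log2 fold change was -0.0025 (adjusted p = 0.986). Of 11 tested genes for export, editing, tailing and turnover of hairpins, 1 (9.09%) rose and 0 fell, beside 17.0% of all genes in either direction and 8.75% higher. The list median was -0.09. The gene that rose was TUT7, a terminal uridylyltransferase listed in the table as ZCCHC6, with a log2 fold change of 0.36 (adjusted p = 0.0335). This call was lost with DESeq2 (adjusted p = 0.0512) and when any library other than silenced replicate 3 was left out, with an adjusted p of up to 0.135. LIN28A and LIN28B, which block the maturation of let-7 microRNAs, had 0 counts in every library.

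Among 18 genes for loading of the silencing complex and Argonaute cofactors, 3 (16.7%) fell and 0 rose, with a median of 0.01. Of all genes, 17.0% passed in either direction and 8.27% were lower. WTIP, a LIM-domain protein of the AJUBA family, had 34.2 to 37.3 CPM in the control and 23.4 to 24.9 CPM in the silenced libraries, a log2 fold change of -0.59 (SE 0.0860, adjusted p = 0.00162). The HSP90 co-chaperone genes FKBP4 and AHSA1 fell by 0.35 (adjusted p = 0.00792) and by 0.28 (adjusted p = 0.0425) on the log2 scale. The call of AHSA1 was lost with library size only (adjusted p = 0.0735) and when any library other than silenced replicate 3 was left out, with an adjusted p of up to 0.181, and that of FKBP4 was kept in all 6 fits. HSP90 and its co-chaperones serve many client proteins besides Argonaute.

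Downstream of the TNRC6 scaffolds, 3 of 20 deadenylation genes rose and 2 fell, together 25.0% beside 17.0% of all genes, with a median of 0.09. BTG2 and BTG1, antiproliferative proteins that bind the CCR4-NOT deadenylase complex, had log2 fold changes of 0.75 (SE 0.180, adjusted p = 0.0174) and 0.39 (SE 0.0803, adjusted p = 0.00933). CNOT6, a catalytic deadenylase of that complex, went from 45.3 ± 1.56 to 31.2 ± 1.99 CPM (SD, n = 3), which is -0.54 on the log2 scale (adjusted p = 0.00211). The call of BTG2 was lost without control replicate 2 (adjusted p = 0.0586), silenced replicate 1 (0.0502) or silenced replicate 2 (0.0557), whereas those of BTG1 and CNOT6 were kept with every library left out in turn. Of 16 genes for decapping, decay and translational repression, 5 (31.2%) rose and 0 fell, beside 17.0% of all genes in either direction and 8.75% higher. The list median was 0.03. The genes that rose included the 5′-to-3′ exonuclease XRN1 with a log2 fold change of 0.39 (adjusted p = 0.0188), the decapping activator PATL1 with 0.33 (adjusted p = 0.0176) and the cap-binding repressor EIF4E2 with 0.33 (adjusted p = 0.0313). For XRN1 and EIF4E2 the call was lost without control replicate 1 or 2 or silenced replicate 1 or 2, and for PATL1 without control replicate 1 or silenced replicate 1 or 2. In these fits, the adjusted p was up to 0.0714 for XRN1, 0.103 for EIF4E2 and 0.0680 for PATL1.

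**Figure D4:**
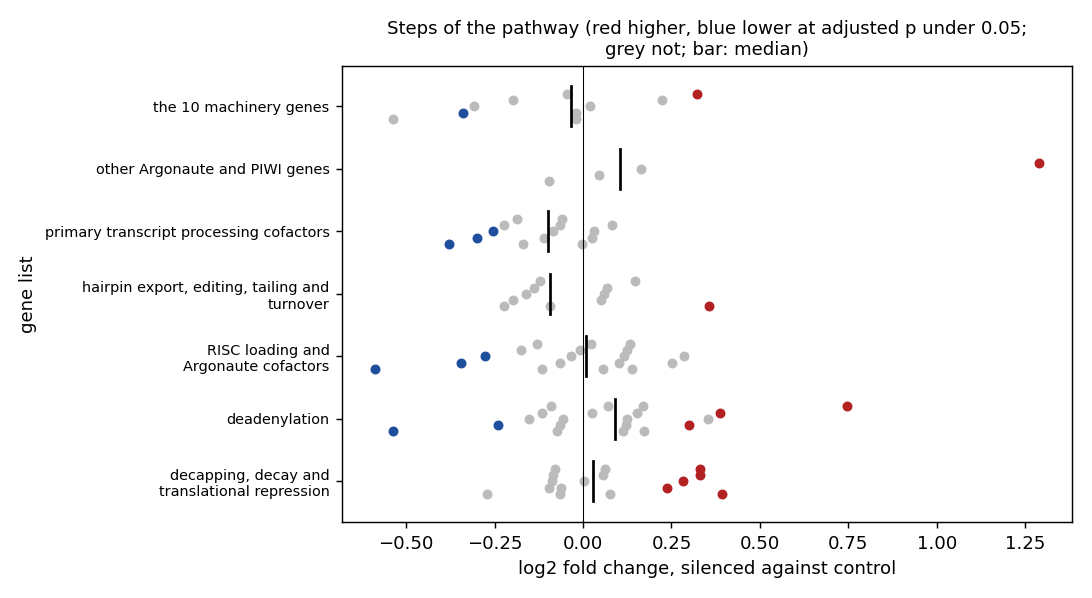
Log2 fold change, silenced against control, of the 10 machinery genes and of each tested gene of the 6 pathway lists, with 1 point per gene, the list median as a bar, and genes past an adjusted p of 0.05 in red (higher) or blue (lower). PIWIL2 at 1.29 is the farthest from 0, and the 5 colored genes for decapping, decay and translational repression are all above 0.

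How firmly the 10 genes could be placed was read from the fits with other settings. DGCR8 was past the threshold with every other normalization, tool, filter and design tried at 0.05, and the 2 left-out libraries named above were the only ones with which it was not. AGO2 kept its direction in every fit and also passed with every other normalization, tool, filter and design at 0.05, but in only 2 of the 6 fits with a library left out. TNRC6A and TNRC6B stood on the other side of the threshold in a few fits, whereas TARBP2, PRKRA, DICER1, DROSHA, XPO5 and TNRC6C did not pass in any.

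**Figure D5:**
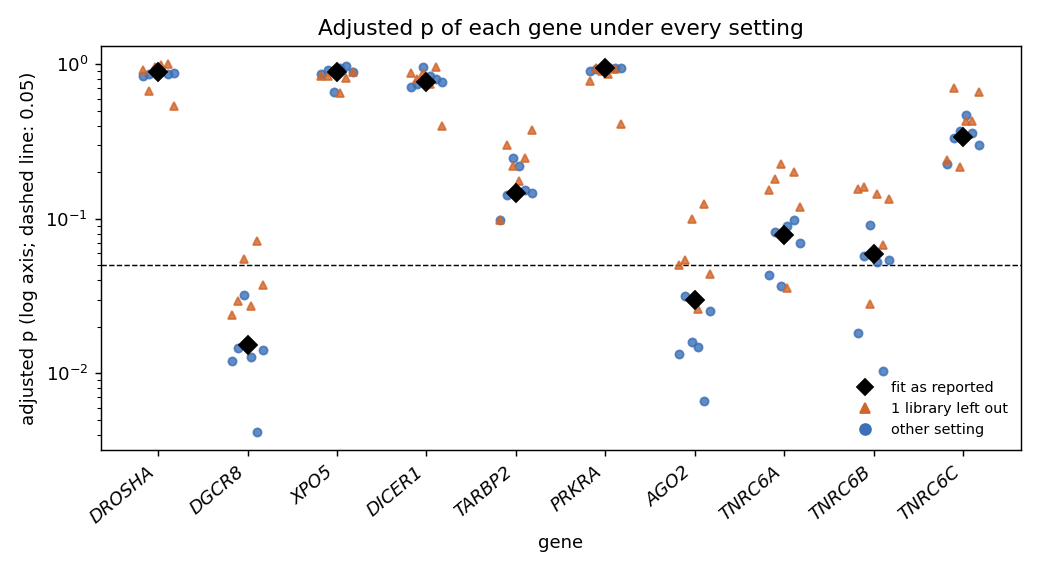
Adjusted p (log axis) of each of the 10 genes in the fit as reported, with 1 library left out and under other settings, with the threshold of 0.05 as a dashed line. DGCR8 and AGO2 lie near the line on its lower side in the fit as reported, and 6 genes stay above it in every fit.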

How the data were processed

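RNA-Seq was performed on 6 libraries of A549 cells, 3 transfected with a negative control and 3 with an siRNA to FAM83H-AS1, grouped as the labels state. The authors obtained the deposited values, raw counts of reads per gene for 40173 genes, with MapSplice, and compared the groups with DESeq. The genome build in the submitters' processing notes is GRCh37, and the treatment of strand and of reads with several matches is not given in the sources used here. Positions, exon lengths and 3′-UTRs were taken from GENCODE 29 on GRCh38, and microRNA sequences from RefSeq on GRCh38.p14. Because the count table has no coordinates, genes were joined by symbol, with older symbols where needed, and 5 of the 88 pathway genes had too few counts to be tested.

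Differential expression was tested on the deposited counts with edgeR 4.0.16 in R 4.3.3, with its own filter (filterByExpr), TMM factors and the quasi-likelihood F test, and p-values were adjusted by Benjamini-Hochberg across the 15250 genes kept. A change was read at an adjusted p under 0.05, and genes beyond a fold of 2 were counted beside it. The common dispersion was 0.0108. Standard errors were derived from the log2 fold change and its F statistic (size over root F), and intervals are at 95%. Ratios were compared by a two-sided exact permutation test over libraries. The fits were tested on simulated data with known changes. Alternatives were RLE factors, library size only, DESeq2 1.42.0, a filter of 1 count in any library, a filter of 10 counts in all libraries, a replicate block, each library left out in turn, a threshold of 0.01, and for ratios 0.5 added to each count.

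All 10 genes, AGO1, AGO3, AGO4 and FAM83H-AS1 were always named, with, from each pathway list, genes past both thresholds and the 3 largest changes past the adjusted p. Some genes that this rule names are not reported here. The genes and lists were chosen with earlier results of these data known. Within groups, pairs of libraries differed beyond counting noise (chi-square per degree of freedom 4.18 to 29.2), so that each library was counted as 1 sample. The pairs of control replicate 3 with control replicates 1 and 2 had 29.2 and 24.7, and the other pairs 4.18 to 10.3.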

Additional observations from a re-analysis of the deposited data

How the results depend on the processing

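The number of the 10 genes past the adjusted p was 2 as reported, 4 with a replicate block, 0 at an adjusted p under 0.01, and between 0 and 3 with 1 library left out: 0 without silenced replicate 1, 1 without control replicate 1, control replicate 2 or silenced replicate 3, and 3 without control replicate 3. The number past a fold of 2 was 0 in all 13 alternatives. The block added TNRC6A (adjusted p = 0.0433) and TNRC6B (0.0182), TNRC6A also passed with library size only (0.0368), and TNRC6B with all genes of at least 1 count (0.0103). The deviations of same-numbered libraries correlated at 0.124, 0.149 and 0.0670, and each library correlated best with its own number, but the labels give no shared origin, so the numbers were not taken as pairs. In the pathway lists, 10 genes were higher and 8 lower as reported, 13 and 11 with the replicate block, 1 and 4 at an adjusted p under 0.01, and 2 to 9 and 4 to 7 with 1 library left out. All genes past the adjusted p numbered 2595 as reported, 3449 with the block and 903 at 0.01. Genes near 0 changed sign: with library size only, which moved the median of all genes to 0.03, the log2 fold change was 0.016 for DROSHA and 0.017 for PRKRA. With 1 library left out, it ranged from -0.12 to 0.010 for DICER1, -0.080 to 0.017 for DROSHA, -0.031 to 0.067 for XPO5, -0.18 to 0.077 for PRKRA and -0.0059 to 0.11 for AGO3, and the TARBP2 to PRKRA ratio difference from -0.33 to 0.050. FAM83H-AS1 stayed between -1.82 and -1.64 with 1 library left out. For TNRC6C it ranged from -0.81 to -0.26, and the TNRC6A to TNRC6C ratio difference from 0.49 to 1.04. The cause of these shifts was not tested. Depth limits what can be said of TNRC6C, with 10 to 37 counts a library.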
